A study of Mus musculus with 21 samples.

Results

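The regions described here are stretches of the mouse genome that lay under H3K36me3 peaks in C2C12 myoblasts at day 0 and under no such peak in the same cells 5 days later in control medium. They were found by interval arithmetic: bases on chromosomes 1 to 19 inside peaks of both wild-type (WT) day 0 libraries and in no peak of either WT day 5 control library, with intervals of at least 1 kb kept. This gave 2092 regions with a summed length of 3.60 Mb, out of 28919 intervals of at least 1 kb in the day 0 territory. The other intervals of at least 1 kb were 25953 kept in both day 5 control libraries (83.8 Mb) and 874 kept in a single library of the pair (1.08 Mb). With shorter intervals included, the day 0 territory was 137 Mb. Because these 4 libraries chose the regions, their values at WT day 0 and WT day 5 control are given as descriptions, and tests were run only on the remaining libraries.

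C2C12 is a mouse myoblast line that forms muscle fibres in culture, and the series followed H3K36me3, by chromatin immunoprecipitation and sequencing, under control medium and methionine restriction. WT cells had 2 libraries in each of 5 groups, namely day 0 and, for both day 1 and day 5, a group in control medium and a group with methionine restricted ("restricted" below). The lines labelled Setd2 KO 1 and 2 had 1 library each in the same 5 groups, so their values have no replicate within a line, and how each line was made is not given in the sources used here. Inside the KO lists the peak names number the lines as replicates, and the labels were used instead. All groups are C2C12 cells, and the composition of the media is not given in the sources used here. No label states that the WT replicates came from separate cultures, so p-values measure only the spread between these libraries. Each library is a deposited list of broad peaks, and "cover" below is the percent of a region's or gene's bases that lie inside the peaks of a library. Read depth is unknown for peak lists, and a lower cover can reflect fewer marked cells or less mark per cell, which bulk chromatin cannot tell apart.

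H3K36me3 is trimethylated lysine 36 of histone H3, written by the enzyme SETD2 as it travels with elongating RNA polymerase II, so that the bodies of transcribed genes carry the mark. Myoblasts that differentiate leave the cell cycle and fuse. In cycling cells genes for DNA replication are driven through E2F sites and many genes for mitosis through a CHR element and CCAAT boxes, and both sets are shut down by RB-family complexes when cells exit the cycle.

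The peaks of the WT libraries covered 108 to 181 Mb of chromosomes 1 to 19, most at day 5 in control medium and least at day 1 under restriction. In the KO lines they covered 0.00782 to 73.2 Mb. The body of Setd2 itself, which does not show whether the gene is disrupted, was covered to 45.6% to 82.8% in the 10 WT libraries, to 0% to 24.0% in KO line 1 and to 0% in all libraries of KO line 2. Of 12 myoblast markers, 7 were at least 50% covered at WT day 0 (Des, Vim, Chrna1, Met, Myod1, Cdh15, Itga7), and Pax3 was at 0. Of 16 genes of differentiated muscle 1 was at least 50% covered at day 0 (Ttn), 4 were at day 1 in control medium, 1 at day 1 under restriction, 13 at day 5 in control medium and 4 at day 5 under restriction, with summed cover of 77.1, 459, 88.5, 1236 and 424 percent in that order. Myoblast markers at least 50% covered numbered 6 and 3 at day 1 in control and restricted medium and 8 and 4 at day 5, and both Myod1 and Myog, regulators of muscle differentiation, had 0% in all 4 restricted WT libraries. Muscle markers thus moved with the medium, and their part in the differences between media below was not tested. No marker of adipocytes, osteoblasts, endothelium or blood reached 50% in any of the 5 WT groups. No myoblast or muscle marker held a lost region, and of the other markers only Runx2, an osteoblast regulator, held any.

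Many of the genes that lost the most territory belong to replication and mitosis, so the promoters of 4 of them are shown before the values. They are the hosts of replication and of mitosis with the most lost bases whose window holds an E2F or a CHR match. Each window runs from 250 bases before to 50 after a transcription start in RefSeq (build GRCm38.p6), 5′ to 3′ on the gene's strand. Capitals mark matches, on either strand, to 3 kinds of motif: E2F sites (TTTCCCGC, TTTCGCGC, TTTGCCGC or TTTGGCGC), the CHR element (TTTGAA) and the CCAAT box (CCAAT). Lig1 (DNA ligase of the replication fork) and Clspn (a fork protein of the replication checkpoint) carry an E2F match, Ect2 (activator of the cleavage furrow) carries CHR matches, and Kif15 (a spindle motor) carries both, adjoining each other near its start.
Lig1, chr7:13278576-13278875, plus strand: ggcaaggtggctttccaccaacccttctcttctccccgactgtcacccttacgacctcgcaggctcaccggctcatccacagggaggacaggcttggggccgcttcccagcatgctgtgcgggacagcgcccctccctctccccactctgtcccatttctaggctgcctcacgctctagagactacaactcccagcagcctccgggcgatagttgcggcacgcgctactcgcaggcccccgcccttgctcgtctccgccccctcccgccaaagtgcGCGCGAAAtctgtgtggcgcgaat
Clspn, chr4:126556730-126557029, plus strand: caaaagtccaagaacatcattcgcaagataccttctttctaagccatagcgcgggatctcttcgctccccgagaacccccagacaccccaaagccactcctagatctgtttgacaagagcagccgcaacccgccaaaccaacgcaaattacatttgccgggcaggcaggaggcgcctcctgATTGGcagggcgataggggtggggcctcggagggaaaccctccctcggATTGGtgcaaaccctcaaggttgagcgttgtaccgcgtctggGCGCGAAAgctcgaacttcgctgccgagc
Ect2, chr3:27153829-27154128, minus strand: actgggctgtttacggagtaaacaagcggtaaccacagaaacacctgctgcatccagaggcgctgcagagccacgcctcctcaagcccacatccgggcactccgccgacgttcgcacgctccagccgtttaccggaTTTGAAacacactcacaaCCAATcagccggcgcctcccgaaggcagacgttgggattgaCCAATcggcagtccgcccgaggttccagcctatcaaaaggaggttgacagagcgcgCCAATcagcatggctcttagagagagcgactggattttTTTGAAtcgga
Kif15, chr9:122950831-122951130, plus strand: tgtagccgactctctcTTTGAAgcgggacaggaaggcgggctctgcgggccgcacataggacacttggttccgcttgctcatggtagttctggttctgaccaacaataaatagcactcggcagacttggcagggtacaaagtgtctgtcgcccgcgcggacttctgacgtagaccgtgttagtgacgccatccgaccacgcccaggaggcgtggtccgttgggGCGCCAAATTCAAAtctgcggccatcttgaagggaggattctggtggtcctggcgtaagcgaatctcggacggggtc

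Of 781 protein-coding genes that hold a lost region (host genes), 627 had such windows, 807 in all, since a gene can have several starts. An E2F match stood in 8.18% of these windows, against 3.04% of the 18150 windows of all genes examined and 5.06% of windows of genes at least 50% covered at day 0. Among host genes of replication the share was 35.0% (14 of 40 windows). Hosts outside the 7 lists of proliferation genes described below had 5.41% of 666 windows with an E2F match and 14.7% with a CHR match. A CHR match stood in 60.0% of windows of mitosis host genes (30 of 50), against 13.99% of all windows, 11.8% of windows of genes at least 50% covered at day 0 and 17.97% of windows of all host genes. A CCAAT match, common at 37.5% of all windows, stood in 62.0% of mitosis windows and 52.5% of replication windows. The median GC content was 60.7% in host windows and 58.0% in all windows. The mitosis windows were at 59.0%, close to the GC content of all windows. These are matches of letters in a window, not measured binding.

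The lost regions were mostly short. Their lengths ran from 1000 to 12418 bases with a median of 1404, 477 of them reached 2 kb and 32 reached 5 kb. Lost bases outside them were scattered: intervals of any length numbered 37907 with 13.1 Mb, and the regions of at least 1 kb held 27.4% of that length. Of the 2092 regions, 1294 (61.9%) touched a WT day 5 control peak, which places them beside territory that was still marked. The other extreme was 145 regions more than 10 kb from any such peak. Domains with no base left under a day 5 peak held 798 regions. Near the length limit, regions of 1000 bases lay in Knl1, Snx5 and Nsg1, and intervals of 999 bases that were left out lay in Osbpl1a and Bcat1, among others.

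The longest regions lay in a few genes. The longest, chr10:120379197-120391614 on GRCm38, and 3 more of the 10 longest lie in Hmga2, an architectural chromatin protein of embryonic and dividing cells. The second, chr1:191064930-191076494, lies in Nsl1, a kinetochore subunit, and the fifth, chr2:163074808-163082963, in Mybl2, a transcription factor of the cell cycle. Others of the 10 lie in Kif15, Eps8 (an actin regulator) and Mcm10 (a replication initiation factor).

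Lost regions sat inside genes: 92.9% of their bases lay in an annotated gene and 90.1% in the 18370 protein-coding genes examined, while 119 regions touched no gene. Of the host genes, 442 held 1 region and 101 held at least 5. The 71 genes with at least 10 kb lost held 1427 of the 3280.5 kb lost in all hosts. Host genes had a median length of 35.1 kb, against 18.3 kb for genes at least 50% covered at day 0. Along the gene, from start to end, the regions' midpoints fell 15.5%, 18.99%, 19.5%, 23.6% and 22.4% into 5 successive equal parts, whereas kept intervals fell 8.97%, 17.1%, 21.6%, 26.1% and 26.3%. Lost regions thus lay nearer the start (median position 56.0% of the gene against 62.0%). Day 0 peaks over lost regions had lower fold enrichment, as the authors' lists give it, than those over kept intervals: the median percentile within the list was 81.7 against 89.5 in replicate 1 and 75.6 against 84.6 in replicate 2. Hairpins of 5 miRNA genes lay in lost regions (Mir5622, Mir96, Mir183, Mir763 and Mir1950).

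Whether a host gene as a whole was left unmarked varied. At day 5 in control medium 428 hosts had under 20% of the body covered and held 70.0% of the lost length, 253 had 20% to 50%, and 100 still had at least 50%. Of 175 genes that went from at least 50% cover at WT day 0 to under 20% at day 5, 158 were hosts. Another 270 hosts ended under 20% from a day 0 cover under 50%.

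The loss was uneven over 15 lists of genes. As background, 4.25% of all protein-coding genes examined were hosts and 2.50% of the day 0 territory inside genes was lost. In the list of mitosis 54 of 66 genes were hosts and 35.97% of the day 0 territory was lost. Centromere and kinetochore genes had 11 of 28 hosts and 33.0% lost, replication fork genes 25 of 32 and 30.1%, origin licensing and firing genes 18 of 27 and 28.0%, and DNA repair genes 28 of 48 and 27.5%. Genes of the E2F and RB network had 9 of 33 hosts and 11.4% lost, and nucleotide synthesis genes 9 of 23 and 5.43%. These 7 proliferation lists together held 154 of the 781 hosts and lost 27.1% of their day 0 territory, against 1.62% for all other genes. Outside them extracellular matrix had 5 hosts of 43 (11.6%) and 5.96% of its territory lost, and growth factor signalling 4 of 45 (8.89%) and 5.65%, both shares of territory above that of nucleotide synthesis. H3K36 methylation genes had 4 of 24 hosts (16.7%) with 1.78% of the territory lost, the methionine cycle 2 of 14 (14.3%) with 3.59%, and the amino acid stress response 3 of 23 (13.04%) with 1.48%. The Notch pathway had 1 of 20 hosts and 0.447% lost, ribosome biogenesis 1 of 29 and 0.202%, and none of the 29 myogenic genes was a host. The rule's own libraries fix these counts, so no test is given for them.

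**Figure D1:**
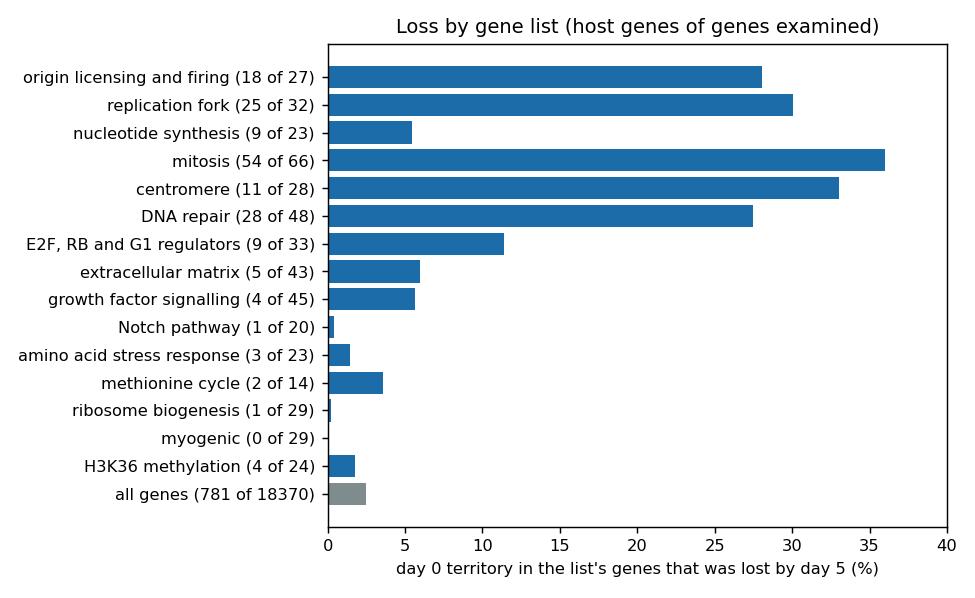
Percent of the WT day 0 territory inside each list's genes that was lost by day 5 in control medium, 1 bar per gene list, with the number of host genes of genes examined beside its name. Mitosis, at 35.97%, has the longest bar.

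The 20 host genes with the most lost bases combined cell division with other functions. Cit, the citron kinase of cytokinesis, lost 71.1 kb in 37 regions, Hmga2 68.7 kb in 17, and Kntc1, a kinetochore checkpoint protein, 45.7 kb in 16. Division and replication genes further down were Brca1 (homologous recombination, 29.7 kb), Ect2 (28.7 kb), Pole (the leading-strand polymerase, 28.1 kb), Kif15 (26.5 kb), Melk (a mitotic kinase, 26.4 kb), Lig1 (24.2 kb), Kif14 (a cytokinesis motor, 23.7 kb) and Clspn (23.3 kb). The others were Col4a1 (a basement membrane collagen chain, 37.0 kb), Bcat1 (branched-chain amino acid transaminase, 35.5 kb), Ly75 (an endocytic receptor, 32.7 kb), Syne2 (a nuclear envelope linker, 30.5 kb), Eps8 (27.5 kb), Blnk (a signalling adaptor best known from B cells, 23.5 kb), Syt13 (a synaptotagmin, 23.4 kb), Rai14 (23.0 kb) and Lrp8 (a lipoprotein receptor, 22.9 kb). Of Col4a1 and Hmga2, 32.4% and 33.3% of the body overlaps other genes, so peaks there cannot be assigned to a single gene.

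**Figure D2:**
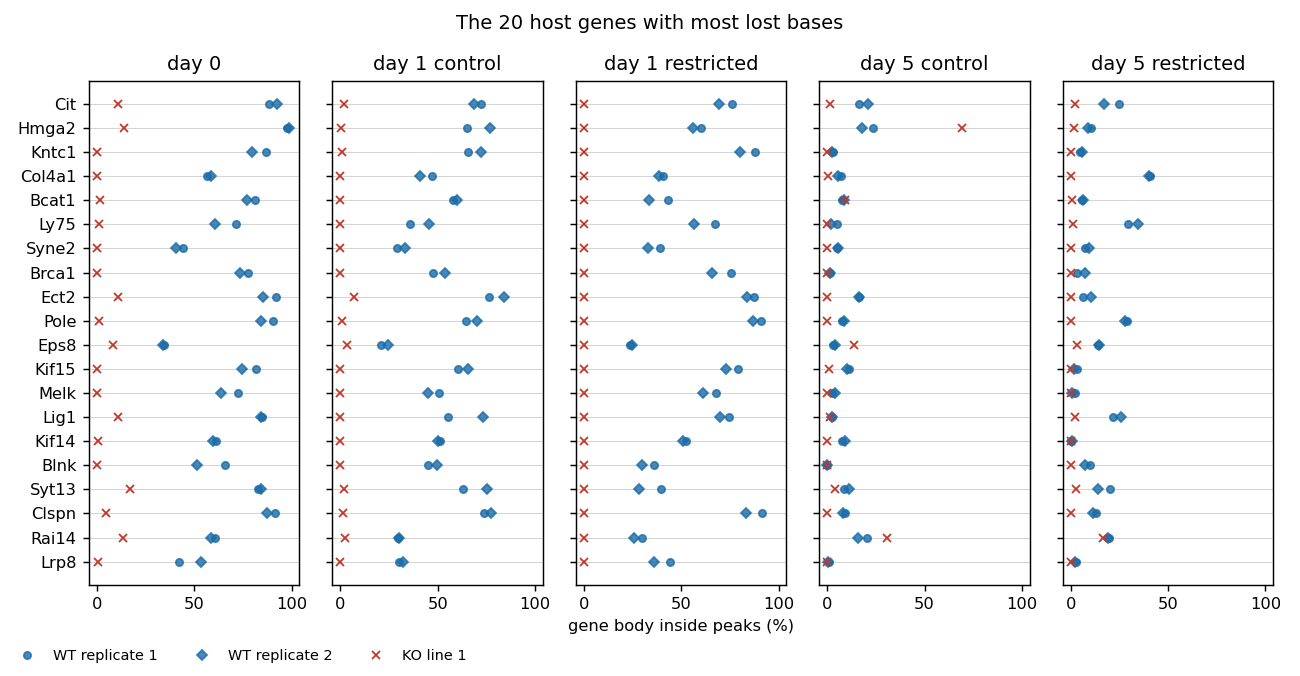
Gene-body cover in percent for the 20 host genes with the most lost bases, 1 panel per group, with both WT replicates and KO line 1 as separate points (KO line 2 is not drawn). The WT points of Cit move from 88.6% and 92.5% at day 0 to 16.5% and 20.9% at day 5 in control medium, and Col4a1 stays near 41% at day 5 under restriction.

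At day 1 the regions were partly covered in both media. Full cover at day 0 is set by the rule, so lower cover at day 1 does not by itself show loss. In control medium 63.0% and 64.5% of their bases lay inside peaks (63.8% ± 1.07, SD, n = 2), and under restriction 63.5% and 56.5% (60.0% ± 4.95, SD, n = 2). The difference of -3.76 points was within the spread of the replicates (exact permutation test over libraries, two-sided, p = 0.667, where 0.333 is the smallest that 2 against 2 allow). Kept intervals stood at 94.4% ± 1.23 in control medium and 76.7% ± 4.78 under restriction (SD, n = 2), a difference of -17.8 points in which the libraries of the 2 groups do not overlap, with an exact p = 0.333. At day 1 in control medium the regions stood below the kept intervals. Kept intervals were chosen for peaks in both day 0 and both day 5 control libraries, so this order is partly set by the choice. Region by region, 1098 were at least 50% covered in both control libraries and 464 in neither, while under restriction 1053 were covered in both and 662 in neither. In 195 regions both control libraries and neither restricted library reached 50%, and in 83 regions the reverse held. Such counts were not made over the kept intervals, whose cover was also lower under restriction. The counts therefore only describe the regions.

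Day 5 under restriction gave the regions' fate in a second pair of libraries that took no part in the rule. There 17.4% of their bases lay inside peaks in both replicates (17.4% ± 0.00799, SD, n = 2), while the kept intervals were covered to 83.7% and 84.6%. From restricted day 1 to restricted day 5 the lost regions fell by 42.6 points and the kept intervals rose by 7.48, each without overlap of the groups and each at the smallest exact p of 0.333. With the regions drawn anew, their fall was 11.5 points with peaks of −log10 q of at least 3 and 23.2 points with every WT list shortened to the length of the shortest. The rise of the kept intervals was 16.5 and 5.04 points in these settings, and 4.10 without replicate 2 of restricted day 1. Of the 2092 regions 1634 were at least 50% covered in neither restricted day 5 library, 230 in a single library and 228 in both. Regions covered in both libraries of both day 1 groups and in neither restricted day 5 library numbered 539, and 132 were covered in all 6 libraries. The kept intervals were not counted in this way.

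**Figure D3:**
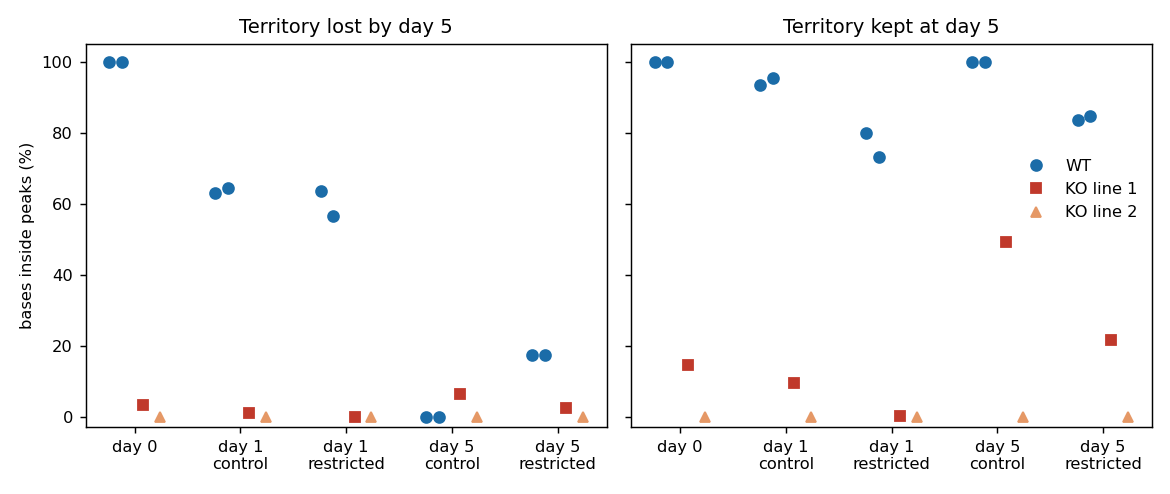
Percent of bases inside peaks for the lost regions and for the kept intervals, by group, with a point per library (WT circles, KO line 1 squares, KO line 2 triangles). WT day 0 and day 5 control are fixed by the rule; at day 5 under restriction both WT points of the lost regions lie at 17.4%.

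The rule was also applied within a single replicate and read in the other. Intervals chosen from replicate 1 alone (7582) were covered in replicate 2 to 66.5% at WT day 0 and to 22.6% at day 5 in control medium. Those chosen from replicate 2 alone (6777) were covered in replicate 1 to 77.7% and 28.0%. In the same order, cover was 51.7% and 53.7% at day 1 in control medium, and 26.1% and 24.2% at restricted day 5. A list made from a single replicate was therefore partly not lost in the other.

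Host genes were then tested over the 6 WT libraries outside the rule with limma on gene-body cover. Of the 781 hosts 713 had a mean cover of at least 5% and were among the 8923 genes tested. The comparison of day 1 media and that of restricted day 5 with restricted day 1 share the restricted day 1 libraries.

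From restricted day 1 to restricted day 5 cover of host genes mostly fell or did not pass the test. Among hosts 258 were called lower and 8 higher, where 4.10% and 8.67% of all genes tested were called lower and higher. The median difference was -8.47 points over hosts and 4.35 over all genes tested. With peaks of −log10 q of at least 3, 114 of the 554 hosts then tested were called lower (20.6% against 36.2%). Of the mitosis hosts 52 of 54 fell, of replication fork hosts 15 of 25, of licensing hosts 14 of 18, of DNA repair hosts 24 of 28 and of centromere hosts 10 of 11. In nucleotide synthesis 4 of 9 fell and in the E2F and RB network 4 of 9. Without either day 1 control library or either restricted day 5 library the nucleotide synthesis count was 2, and without replicate 1 of restricted day 5 the repair count was 16. With peaks of −log10 q of at least 3 the counts were 40 of 51 in mitosis, 9 of 22 at the fork, 8 of 16 in licensing, 8 of 20 in repair, 4 of 9 at the centromere, 1 of 9 in nucleotide synthesis and 3 of 9 in the E2F and RB network.

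The steepest declines were in genes of chromosome segregation and cytokinesis. Espl1, the separase that cuts cohesin, was covered to 91.5% and 88.4% at restricted day 1 and to 1.53% and 1.38% at restricted day 5, after 97.4% and 94.3% at day 0. Cenpe, a kinetochore motor, had 94.1% and 91.7% and then 6.49% and 4.82%, and Ndc80, the microtubule-binding kinetochore subunit, 92.0% and 87.6% and then 2.24% and 3.26%. All restricted day 5 libraries lay far below all restricted day 1 libraries for these genes. The differences were -88.5 ± 3.47 points for Espl1, -87.3 ± 4.06 for Cenpe and -87.1 ± 4.59 for Ndc80 (± SE), each with a limma adjusted p of 0.000208. Iqgap3, a cytokinesis scaffold, and Hmmr, a spindle protein, fell by 86.1 and 85.3 points at the same adjusted p.

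The values at day 5 in the 2 media can be set side by side for these genes, without a test since control day 5 chose them. Espl1 was covered to 30.3% and 18.6% in control medium, Cenpe to 22.1% and 27.9%, and Hmmr to 21.3% and 30.6%, against 0% in both restricted libraries for Hmmr. Over the 54 mitosis hosts the median of the mean cover was 83.4% at day 0, 75.7% at day 1 in control medium, 75.6% at day 1 under restriction, 18.5% at day 5 in control medium and 2.86% at day 5 under restriction. For this list the median at day 5 was the lower one under restriction.

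Among other mitosis and kinetochore hosts with much lost territory, Cit was covered to 76.3% and 69.2% at restricted day 1 and to 24.7% and 16.996% at restricted day 5 (-51.9 ± 4.67 points, limma adjusted p = 0.00131). Ect2 went from 87.4% and 84.0% to 6.19% and 10.4%, Kif15 from 79.2% and 72.8% to 3.35% and 1.88%, and Melk from 67.7% and 61.5% to 2.31% and 0.453%. Cenph, a subunit of the centromere complex, went from 62.9% and 67.3% to 0% in both libraries. Restricted day 1 and restricted day 5 did not overlap for these 5 genes.

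Of the replication hosts, 15 of 25 at the fork and 14 of 18 in licensing were called lower over the same days. Fork hosts had more cover left at restricted day 5 than mitosis hosts, a difference that was not tested. In licensing and firing, Ticrr (which helps fire origins) went from 83.2% and 76.8% to 5.46% and 5.96%, a fall of 74.3 points (limma adjusted p = 0.000213). Cdc6, a licensing factor, fell from 68.3% and 53.2% to 6.44% and 4.22%, and Dbf4, the activator of the firing kinase, from 63.2% and 58.6% to 4.97% and 3.801%. At the fork, Pole stood at 28.7% and 27.9% and Lig1 at 21.8% and 25.8% at restricted day 5, where control day 5 had 7.57% and 8.46% for Pole and 2.23% and 2.25% for Lig1. Clspn had 13.1% and 11.4% against 9.10% and 8.17%, and Chaf1b, a subunit of the chromatin assembly factor, 14.9% and 10.7% against 2.43% and 0%. Control day 5 chose these hosts, so lower values there partly follow from the rule and were not tested. Over all 25 fork hosts the gap between the media was smaller, with a median of the mean cover of 23.8% at restricted day 5 and 19.9% at control day 5, and over the 18 licensing hosts the medians were 15.8% and 18.7%. The lost bases of fork hosts were covered to 23.6% and 21.2% at restricted day 5 and those of mitosis hosts to 5.02% and 4.66%. Licensing hosts stood between them at 18.7% and 15.3%.

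**Figure D4:**
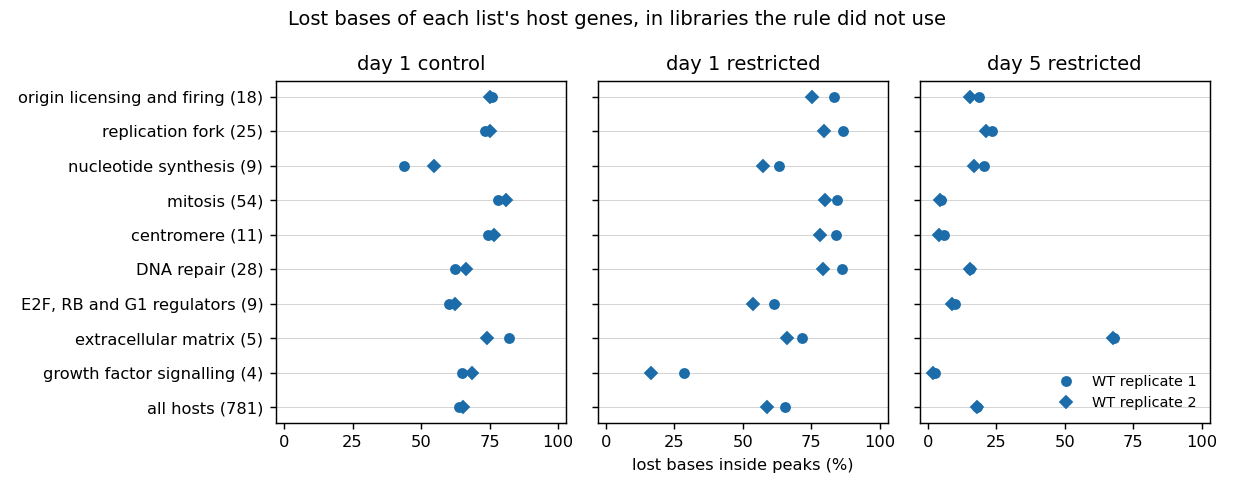
Percent of the lost bases of each list's host genes that lay inside peaks in the 3 WT groups outside the rule, with a point per replicate and the number of hosts beside each list. At day 5 under restriction extracellular matrix hosts stand at 68.1% and 67.6%, with 58.4 of their 68.3 lost kb in Col4a1 and Col4a2, and mitosis hosts at 5.02% and 4.66%.

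Of the extracellular matrix hosts, the paired collagen genes were still covered at restricted day 5. The lost bases of Col4a1 were covered to 81.5% and 81.6% and those of Col4a2, the partner chain encoded beside it, to 69.2% and 64.2%, where control day 5 had 0% by the rule. The whole body of Col4a1 was covered to 56.3% and 58.7% at day 0. On day 1 the control libraries had 47.1% and 41.0% and the restricted ones 40.7% and 38.6%, and on day 5 the control libraries had 7.01% and 5.53% and the restricted ones 41.0% and 40.4%. Restricted day 1 and restricted day 5 overlapped, with a difference of 1.08 ± 3.93 points (limma adjusted p = 0.885), and for Col4a2 it was -1.02 ± 3.802 (adjusted p = 0.888). The lost bases of the other 3 matrix hosts, Nid1, Thbs2 and Mgp, were covered to 15.7% and 22.2% at restricted day 5, near the 17.4% of all lost regions. Over the whole body Nid1, a basement membrane linker, had 52.6% and 53.7% at restricted day 5 against 39.7% and 42.3% at control day 5. Thbs2, a matricellular thrombospondin, had 50.8% and 52.0% against 45.6% and 44.0%. Because control day 5 chose the hosts, lower values there partly follow from the rule and were not tested.

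Among hosts with at least 10 kb lost, the next highest cover of lost bases at restricted day 5 was in Ass1, the urea cycle and arginine enzyme, at 65.2% and 52.2%. Ass1 had little cover of these bases at day 1 in control medium (9.44% and 20.4%) and more under restriction (60.5% and 59.3%). Then came Eps8 at 47.9% and 47.5%, Gpr137b at 40.2% and 54.8%, and Ly75 at 43.3% and 50.4%. In these 3 genes both libraries lay below restricted day 1, which had 71.8% and 75.96% for Eps8, 73.4% and 70.8% for Gpr137b, and 89.7% and 73.1% for Ly75. Pole (31.2% and 33.9%) and Hells (29.99% and 31.8%) completed the 8 highest. At the other end, the lost bases of Kif14, Knstrn, Hmmr, Aspm, Bard1, Cdc25c, Gramd4 and Hrob were covered to 0% in both restricted day 5 libraries. Of these 8, 4 are in the mitosis list, 1 in that of DNA repair and 3 in none, and Gramd4 had only 17.1% and 8.97% at day 1 in control medium. These genes were named for their restricted day 5 values, so the values are a description.

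Hosts called higher from restricted day 1 to restricted day 5 numbered 8, and their calls were unsteady. The largest difference was that of Pno1, a ribosome assembly factor, at 27.5 ± 6.62 points (limma adjusted p = 0.0438), a call lost in 11 of 14 alternatives, among them each of the 6 libraries left out. Ephx1, an epoxide hydrolase, went from 22.3% and 17.2% to 42.2% and 41.5% (22.1 ± 3.68 points, limma adjusted p = 0.0147), and Rars2, the mitochondrial arginyl-tRNA synthetase, from 36.5% and 32.6% to 55.0% and 55.8% (20.9 ± 3.69 points, adjusted p = 0.0177). Both calls were lost without replicate 2 of restricted day 1, without either restricted day 5 library and with joined peaks, and that of Ephx1 also with shortened lists, with adjusted p up to 0.137 and 0.149 over 14 alternatives.

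The day 1 comparison of media gave a different picture. Of the 713 hosts tested, 100 were higher under restriction and 181 lower, where 3.17% of all genes tested were called higher and 38.5% lower. The median difference was -1.85 points over hosts and -8.52 over all genes tested. The balance depends on the length of the lists: with the lists shortened in that way, 233 of 658 hosts tested were higher and 110 lower, and over all 8212 genes then tested 1104 were higher and 2197 lower, with a median of -4.05. That scaling turns the median of hosts to 6.94.

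DNA repair genes were the list with the most hosts higher under restriction at day 1. Of its 28 hosts 18 were higher and 1 lower, where 3.17% of all genes tested were called higher and 38.5% lower. The median difference of these 28 was 17.8 points. The count of higher hosts was 26 of 28 with shortened lists, 8 of the 20 then tested with peaks of −log10 q of at least 3, and 12 to 18 with single libraries left out. With shortened lists 13.4% of all genes and 35.4% of all hosts were higher. With peaks of −log10 q of at least 3 these shares were 1.63% and 8.84%. Polq, the polymerase of end joining by microhomology, was covered to 21.4% and 25.4% in control medium and to 54.1% and 53.7% under restriction, after 51.7% and 36.6% at day 0. Brca1 had 47.4% and 54.0% and then 75.8% and 66.0%, Exo1, a resection nuclease, 53.4% and 59.2% and then 73.0% and 71.6%. In all 3 genes both restricted libraries lay above both control libraries.

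The differences were 30.5 ± 3.19 points for Polq (limma adjusted p = 0.000931), 20.2 ± 4.91 for Brca1 (adjusted p = 0.0185) and 15.96 ± 4.18 for Exo1 (adjusted p = 0.0240). Hells, a chromatin remodeller of dividing cells, had 56.2% and 68.5% and then 79.2% and 71.9%, with 13.2 ± 5.28 points (adjusted p = 0.0889). Further repair hosts with large differences were Atm, the double-strand break kinase (38.5 ± 5.08 points, adjusted p = 0.00213, and 0.2497 with peaks of −log10 q of at least 3), and Fancm, a Fanconi anaemia helicase (32.4 ± 4.09, adjusted p = 0.00181). Msh6, a mismatch repair protein, was the repair host called lower under restriction, at 55.5% and 44.1% against 66.4% and 71.0% (-18.9 ± 4.98, adjusted p = 0.0249), and 2 more of the 28 had estimates below 0 that did not pass the test. The lost bases of the repair hosts were covered to 62.5% and 66.4% at day 1 in control medium, to 86.3% and 79.3% at day 1 under restriction and to 15.4% in both libraries at restricted day 5.

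**Figure D5:**
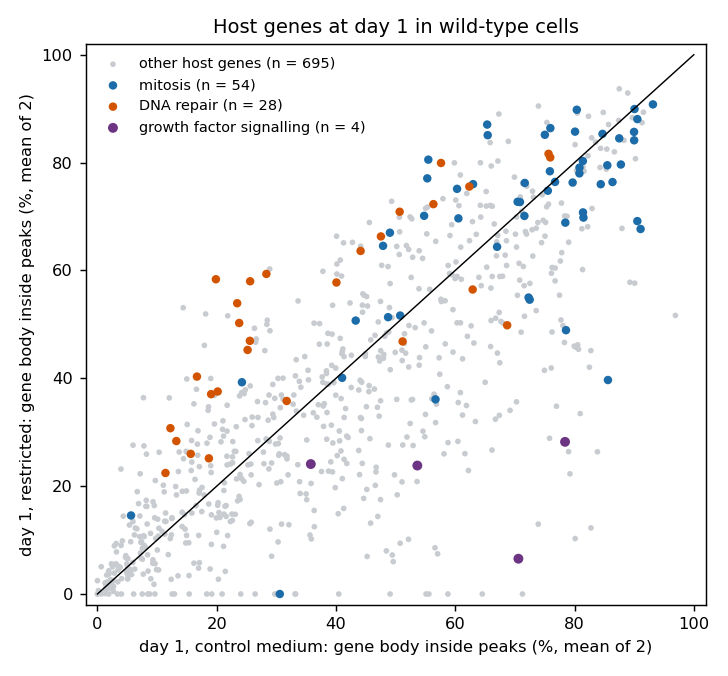
Mean gene-body cover (percent, mean of 2 libraries) of each host gene at day 1 in control medium (horizontal) and under restriction (vertical), with repair, mitosis and growth factor hosts in colour and the line of equality. Most DNA repair hosts lie above the line, and all 4 growth factor hosts lie below it.

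In nucleotide synthesis, Shmt1, which passes a one-carbon unit from serine to folate, was covered to 19.004% and 16.9% in control medium and to 50.3% and 42.0% under restriction (28.2 ± 3.98 points, limma adjusted p = 0.00269). Tyms, the thymidylate synthase, had 38.0% and 44.1% and then 47.4% and 42.5%, which overlapped. Of the 9 hosts in this list 2 were higher and 2 lower, where 3.17% and 38.5% of all genes tested were. The count lower was 1 without either control library, and with shortened lists 3 were higher and 3 lower. In the methionine cycle, Mtrr, which reactivates methionine synthase, had 59.1% and 49.95% and then 66.4% and 58.1% (limma adjusted p = 0.251). It had 78.2% and 72.5% at restricted day 5 against 28.9% and 20.1% at control day 5. The day 5 difference was not tested, since control day 5 chose the host. Mtap, the enzyme of methionine salvage, was lower under restriction at day 1, at 53.7% and 37.0% against 76.9% and 84.4% (-35.3 ± 6.32, adjusted p = 0.00621).

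Replication and mitosis hosts mixed both directions at day 1, with few calls, and the counts moved with single libraries. Pole rose from 64.3% and 70.4% in control medium to 91.2% and 86.8% under restriction (21.7 ± 3.92 points, limma adjusted p = 0.00631), and Cenpu, a centromere subunit, from 43.7% and 47.5% to 72.2% and 65.6% (23.3 ± 4.25, adjusted p = 0.0066). Of the 25 fork hosts 3 were higher and 2 lower, of the 18 licensing hosts 3 and 0, of the 11 centromere hosts 4 and 0 and of the 54 mitosis hosts 7 and 8, where 3.17% of all genes tested were called higher and 38.5% lower. With shortened lists the counts were 10 higher and 2 lower of 24 fork hosts, 5 and 0 in licensing, and 4 and 0 at the centromere. Mitosis then had 13 and 7 of 52, and its median turned from -0.84 to 2.89 points. With these lists 13.4% of all genes and 35.4% of all hosts were higher and 26.8% and 16.7% lower. With joined peaks the fork had 3 higher and 1 lower, licensing 1 and 2, the centromere 2 and 0, and mitosis 2 and 6. Of all genes 2.28% were then higher and 30.9% lower. With peaks of −log10 q of at least 3 the centromere had 1 higher of 9, where 1.63% of all genes were higher. Without control replicate 1, mitosis had 2 higher and 3 lower, licensing 1 higher and the centromere 2. Without restricted replicate 1, mitosis had 1 higher and 8 lower, licensing 1 and 1, and the centromere 2 and 0, and without restricted replicate 2 the fork had 6 higher and mitosis 6 higher and 4 lower. Without control replicate 2, mitosis had 6 higher and 4 lower and licensing 1 higher, and without either restricted day 5 library the centromere had 2 higher. Esco2, the cohesin acetyltransferase, was among the higher ones at 85.5% and 75.6% against 45.2% and 65.7% (25.1 ± 7.37, adjusted p = 0.0357). Ccnb1, the mitotic cyclin, was lower at 50.7% and 28.6% against 84.7% and 86.5% (-45.9 ± 7.11, adjusted p = 0.00379). Outside the lists Ube2c, the ubiquitin enzyme that works with the anaphase complex, was lower at 20.5% and 0% against 78.3% and 81.9% (-69.8 ± 6.62, adjusted p = 0.000701).

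Growth factor signalling had 4 hosts, and all 4 were lower under restriction at day 1, where 38.5% of all genes tested were called lower. Over the whole list, hosts or not, 23 of the 31 genes tested were lower, with a median of -21.0 points. With shortened lists 11 of 29 were lower, with a median of -6.94, where 26.8% of all genes were lower, and with single libraries left out 16 to 22 of 31 were. Of the 23 myogenic genes tested, none of them a host, 19 were lower as well, and 11 of 18 with shortened lists. Igfbp2, an insulin-like growth factor binding protein, lost 22.3 kb of 28.0 kb and was covered to 75.6% and 81.3% in control medium and to 34.5% and 21.9% under restriction, after 92.2% and 94.9% at day 0 (-50.2 ± 5.13 points, limma adjusted p = 0.000873). Fosl1, an AP-1 transcription factor, had 71.9% and 69.3% and then 5.79% and 7.30% (-64.0 ± 5.16, adjusted p = 0.000429), and Pdgfrb, the platelet-derived growth factor receptor, 51.9% and 55.4% and then 28.9% and 18.8% (-29.8 ± 4.45, adjusted p = 0.00334). Dusp4, a phosphatase of MAP kinases, was near the threshold at an adjusted p of 0.0491. The count of hosts was 3 of 4 with any single library left out, and 2 of 4 with shortened lists or with peaks of −log10 q of at least 3. Of the Fosl1 body 33.7% overlaps another gene, so its peaks cannot be assigned to a single gene. Fosl1 and Pdgfrb held a single region of just over 1 kb each and stood at 70.2% and 66.6%, and 57.5% and 59.5%, at control day 5, so the genes as a whole had not lost the mark. Rnf225, which encodes a RING finger protein, had the largest fall of all hosts at day 1, from 78.6% and 63.9% to 0% in both restricted libraries (-71.3 ± 5.32, adjusted p = 0.000337).

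In other lists Stc2, a secreted stanniocalcin of the amino acid stress list, had 44.7% and 46.9% in control medium and 14.7% and 11.6% under restriction at day 1 (-32.7 ± 2.77 points, limma adjusted p = 0.000484) and 0% in both restricted day 5 libraries. E2f7, a repressor of the E2F family, had 88.7% and 93.9% and then 87.5% and 87.3% at day 1 (adjusted p = 0.462) and fell to 9.07% and 15.9% at restricted day 5 (-74.9 ± 4.01, adjusted p = 0.000208). Ccnd2, a cyclin of the start of the cycle, was lower under restriction at day 1, at 38.2% and 32.2% against 54.9% and 58.8% (-21.6 ± 5.59, adjusted p = 0.0231). Cdk6, a kinase of the same step, had 20.03% and 22.5% and then 23.2% and 18.02%, which overlapped.

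The regions were also tested one at a time with the same fit over 28795 intervals. Of 2092 regions 1996 were tested; 402 were called lower and 1 higher from restricted day 1 to restricted day 5, where 2.18% and 2.79% of all intervals were, and 62 were called higher and 175 lower at day 1 under restriction, where 0.927% and 14.1% were. The counts moved with the libraries in the fit. In a simulation of the day 1 comparison most calls of this fit fell on intervals that had not been changed, so the day 1 counts do not say which regions changed. The comparison with restricted day 5 was not simulated. Without replicate 1 of day 1 control 0.651% of the regions were called higher at day 1 against 3.05% of the other intervals, and 4.21% lower against 3.25%, so that the order of regions and other intervals turned in both directions. It turned in the same way without replicate 2 of that group. No region was called lower from restricted day 1 to restricted day 5 when the fit held only the 4 libraries compared or left out replicate 1 of day 1 control. Named examples are therefore given as cover alone. A region in Foxm1, a transcription factor of mitosis that overlaps Tex52 there (chr6:128375378-128377228), was 100% covered in both day 1 control libraries and 0% in both restricted ones. A region of Hmmr (chr11:40706565-40709714) was 100% covered in all 4 day 1 libraries and 0% in both restricted day 5 libraries.

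In the lines labelled Setd2 KO the regions were nearly bare. Line 1 had 3.31% of their bases inside peaks at day 0, 1.16% at day 1 in control medium, 0.00641% at day 1 under restriction, 6.49% at day 5 in control medium and 2.44% at day 5 under restriction. Line 2 had at most 0.0490% in any group. Over the 3 groups outside the rule, WT libraries exceeded KO libraries by 46.5 points on average in the lost regions and by 79.9 points in the kept intervals. Both sets were drawn from WT peaks, and every KO list covers fewer bases than any WT list. The direction of this difference thus follows from the choice of regions and is given without a test. From day 0 to day 5 in control medium, the contrast of the rule, line 1 rose by 3.19 points in the lost regions and by more in the kept intervals, from 14.5% to 49.2%. The mean over both lines was 1.61 points (exact permutation test, two-sided, p = 0.5, the smallest that 4 arrangements allow).

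Single hosts stood apart in KO line 1 at day 5. Hmga2, which fell in WT from 97.9% and 98.6% at day 0 to 23.3% and 17.7% at day 5 in control medium, was covered in this line to 13.8% at day 0, 0.395% at day 1 in control medium, 0% at day 1 under restriction, 69.0% at day 5 in control medium and 1.54% at day 5 under restriction. Its lost bases alone went from 1.23% at day 0 to 55.3% at day 5 in control medium. Next by length covered in this library were Eps8 (43.3% of its lost bases) and Rai14 (33.4%). In line 1 at day 5 in control medium 126 regions were at least 50% covered, against 33 at day 0. Over the same days the peaks of line 1 grew from 17.5 to 73.2 Mb, and cover of the kept intervals from 14.5% to 49.2%. Kept intervals reaching 50% in line 1 were not counted. Mitosis and repair hosts had little cover in this line: lost bases of mitosis hosts went from 4.18% at day 0 to 0.142% at control day 5 in line 1, and those of repair hosts from 2.97% to 0.169%. All of these rest on 1 library per value and were not tested.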

How the data were processed

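H3K36me3 ChIP-seq was deposited as 20 lists in the 9-column broad-peak layout, 1 per library, with peaks called separately in each library. Reads were single-end with a Drosophila spike-in, per the labels' protocols, and the build GRCm38 is named in the submitters' processing notes. The peak caller and its settings are not given in the sources used here, and the spike-in was not used for scaling here. The score of each peak was deposited by the authors and was not used. The fold enrichment (ratio) was deposited by the authors and served only to rank peaks against others of their list. The deposited −log10 p and −log10 q are the authors' too, and the lowest −log10 q over all lists was 1.00.

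Peaks of a library were merged and intersected on chromosomes 1 to 19 (Python 3.11.15, numpy 2.4.6, pandas 2.3.3). Gene bodies and promoter windows came from RefSeq on GRCm38.p6, with protein-coding genes of at least 2 kb. Percent cover was compared between groups by exact permutation tests over libraries, with Benjamini-Hochberg adjustment over 4 tests (WT against KO, a difference fixed by the choice of regions, is given without its p, and the other 3 had adjusted p of 0.667), and feature by feature with limma 3.58.1 (R 4.3.3; lmFit, then eBayes with trend and robust settings) in 6 WT libraries, for features with a mean cover of at least 5%. Calls are Benjamini-Hochberg adjusted p-values under 0.05 over all features tested. Interval arithmetic and limma were tested on simulated data. The limma simulation covered the day 1 comparison alone, and there most region calls and a minority of gene calls fell on unchanged features and many changed features of either kind were missed. Named genes are the 20 hosts with the most lost bases, up to 4 hosts per list, and up to 5 per direction and contrast with the largest difference among called hosts whose libraries do not overlap. Not all of these are given in the text, a few genes are not reported here, and other genes named were chosen after their values were seen. The regions and the 15 gene lists were chosen with earlier results of these data known. Alternatives varied the −log10 q, list length, peak joining, interval length, cover filter, model and libraries.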

Additional observations from a re-analysis of the deposited data

Results flagged for a closer look

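From day 0 to day 1 in control medium the share of the lost regions inside peaks moved in opposite directions in the KO lines: it changed by -2.14 points in line 1 and by 0.0127 points in line 2. Each line had a single library per group, line 2 was near 0 in both, and the difference between the lines was not tested.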

How the results depend on the processing

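The lost regions numbered 2092, and 5530 when drawn with peaks of −log10 q of at least 3. They numbered 4026 with lists shortened to the shortest WT list and 4659 with peaks joined across gaps of up to 1 kb. With a length limit of 500 bases there were 7314, and with 2 kb 477. Drawn anew with the day 5 peaks widened by 1 kb on each side, they numbered 881. With single libraries left out of the rule they numbered 3514 to 4625. The day 1 difference in cover of the lost regions, -3.76 points, ran from -8.27 to 2.18 with single libraries left out and was above 0 only without WT day 0 replicate 2, in a test whose smallest possible p is 0.333. The fall to restricted day 5, -42.6 points, was -11.5 at −log10 q of at least 3, -23.2 with shortened lists, -32.7 with joined peaks, -29.9 at 500 bases, -57.1 at 2 kb, and -46.1 to -30.4 with single libraries left out. The WT excess over KO was 35.98 to 60.5 over all alternatives.

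Regions and hosts were drawn anew wherever a setting changed the peaks or left out a library of the rule, which raised the hosts tested from 713 to 2031 at −log10 q of at least 3, 1897 with shortened lists and 1687 with joined peaks. Hosts called lower from restricted day 1 to restricted day 5 were 36.2% of those tested, and with hosts drawn anew 6.89%, 14.6% and 15.1% in these 3 settings. Over the original hosts they were 20.6%, 39.8% and 29.8%. With single libraries left out they were 18.7% to 29.3%. In the fits with hosts drawn anew or a library left out fewer than 3% of the other genes were called lower. Hosts called higher in that comparison were 1.12% against 9.33% of other genes, and 0.421% in a fit of the 4 libraries compared, 6.35% at −log10 q of at least 3, 0.415% with joined peaks and 0% to 2.64% with libraries left out. At day 1, 14.03% of hosts were higher against 2.23% of other genes. With hosts drawn anew they were 4.78% against 0.460% at −log10 q of at least 3, 7.11% against 1.17% with joined peaks and 19.3% against 11.7% with shortened lists, and over the original hosts 8.84%, 9.24% and 35.4%. With libraries left out they were 6.31% to 14.9%, against 0.609% to 2.28% of other genes. Those lower were 25.4% against 39.6% of other genes, and 15.7% to 27.7% with libraries left out. Without the filter on mean cover the order of hosts and other genes turned, with 20.7% lower against 15.6%.

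For single regions, those higher at day 1 were 3.11% against 0.765% of other intervals, and 5.18% against 1.06% at −log10 q of at least 3 and 0.351% to 3.25% with libraries left out. Those lower were 8.77% against 14.5%, and 5.16% against 10.6% in a fit of 4 libraries and 1.20% to 9.72% with libraries left out. Without day 1 control replicate 1 the higher ones were 0.651% against 3.05% and the lower ones 4.21% against 3.25%, and without replicate 2 they were 2.40% against 5.87% and 8.87% against 5.85%, the reverse order in each case. From restricted day 1 to restricted day 5, 20.1% were lower against 0.843% of other intervals, and 0% in a fit of 4 libraries, 8.28% at −log10 q of at least 3, 9.87% with shortened lists, 13.1% with joined peaks and 0% to 17.9% with libraries left out. Those higher were 0.0501% against 2.99%, and 0% in a fit of 4 libraries, 3.03% at −log10 q of at least 3, 0.337% with shortened lists, 0.547% with joined peaks and 0% to 0.451% with libraries left out. The causes were not tested. Leaving out the libraries of a KO line was added after the data were seen.

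Correlations of replicate differences between groups were -0.0165, 0.0511 and -0.0116. They give no sign that the replicate numbers pair the libraries, and they cannot exclude it. With the replicate block, regions called higher at day 1 were 1.55% against 0.410% of other intervals and those lower 4.36% against 7.56%. To restricted day 5 they were 0% against 0.440% and 8.92% against 0.377%, and hosts called higher were 0.561% against 6.07% of other genes. The library-level differences, -3.76 and -42.6 points, are the same under the block by arithmetic. The lists carry no depth, so a region absent from a shorter list may have been under its detection limit.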
